A study of Mus musculus with 10 samples.

Results

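The regions described here are those whose chromatin accessibility differed between mouse embryonic fibroblasts (MEF) and sorted cells at day 9 of their reprogramming towards pluripotency (DAY9). Accessibility had been measured by ATAC-seq, in which a transposase inserts adapters into open DNA, and the authors deposited 1 list of peaks per library. Overlapping peaks of the 2 MEF and 2 DAY9 lists merged into 144869 regions, of 208851 when all 10 lists of the series were merged. A region was called gained when both DAY9 lists and neither MEF list had a peak in it, and lost in the reverse case. By this rule 35682 regions were gained, which is 24.6% of the merged regions, and 23070 were lost, which is 15.9%. A further 21211 regions had a peak in all 4 lists and are called unchanged, and 64906 had a peak in some but not all libraries of a stage. The 2 changed sets together hold 58752 regions, and their positions are on mm10.

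Both groups came from the same kind of cell: fibroblasts of C57BL/6 x 129 background that carry a polycistronic OKSM cassette (Oct4, Klf4, Sox2 and Myc) in Col1a1 and the doxycycline-controlled activator M2rtTA in Rosa26. The MEF cells were kept in fibroblast medium without doxycycline and were not sorted. The DAY9 cells had spent 9 days in ESC medium with 1 ug/ml doxycycline and 50 ug/ml ascorbic acid and were sorted for SSEA+, which the series' design text gives as SSEA1, a surface sugar of early pluripotent cells. Cassette induction, medium, ascorbic acid and the sort therefore all separate DAY9 from MEF and cannot be told apart. The pluripotent reference was V6.5, an embryonic stem cell line (ESC, 2 libraries), which lacks the cassette and was grown unsorted on feeder cells, and the 2 DAY3 and 2 DAY6 libraries, from unsorted and sorted induced cells, served to date each change. All libraries carry the same batch name in the labels.

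During reprogramming, Oct4, Sox2 and Klf4 bind DNA elements that are closed in fibroblasts, and the fibroblast programme, which runs largely from distal enhancers bound by AP-1, Tead and Runx factors, is shut down. Cells first lose mesenchymal and take on epithelial character, and the endogenous network around Nanog, Esrrb and Sall4 becomes active later. Enhancers are used by particular cell types, whereas many promoters are open in most cells.

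Among listed genes, 7 with a start site inside a changed region are shown with their DNA. They were chosen after their values were seen and all hold a motif match. A match lay wholly or partly in 14 of 22 listed promoters in gained and 7 of 10 in lost regions. The 14 include Cldn6, whose only match begins at the last of the 250 bases used. Nanog, Marveld2 and Tjp3 are counted at each of their listed start sites. The share of all promoters with a match to any of the 8 motifs was not computed, so these counts cannot show enrichment. Single motifs were common among all promoters, read there over somewhat more bases. Klf letters were in 19.4%, Sox letters in 16.8%, Runx letters in 15.0% and Tead letters in 13.6%. Each sequence is the 250 bases before a RefSeq start site on GRCm38.p6, the assembly of mm10, read 5′ to 3′ on the gene's strand. Capitals mark matches on either strand to the letters of 8 motifs: AP-1 (TGANTCA), octamer (ATGCAAAT), Sox (ACAAAG), Klf (GGGNGTGG), Tead (GGAATG), Runx (TGTGGT), Esrrb (TCAAGGTCA) and Ctcf (TAGGGGGC), and neighbouring matches may touch. The first 4 lie in gained regions: Nanog, a core pluripotency factor (chr6:122707315-122707564, plus strand), Tdgf1, the Nodal co-receptor (chr9:110946159-110946408, minus), L1td1, an RNA-binding protein of pluripotent cells (chr4:98726504-98726753, plus), and Cldn4, a tight junction claudin (chr5:134946935-134947184, minus). The other 3 lie in lost regions: Col6a1 (chr10:76726045-76726294, minus) and Col3a1 (chr1:45311288-45311537, plus), both collagen genes, and Runx2, an osteoblast and mesenchymal transcription factor (chr17:44814628-44814877, minus).
Nanog: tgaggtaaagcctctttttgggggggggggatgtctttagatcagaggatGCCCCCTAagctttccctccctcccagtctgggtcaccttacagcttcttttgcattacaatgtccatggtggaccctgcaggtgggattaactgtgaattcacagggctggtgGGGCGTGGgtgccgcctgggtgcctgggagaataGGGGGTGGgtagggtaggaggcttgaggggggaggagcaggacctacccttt
Tdgf1: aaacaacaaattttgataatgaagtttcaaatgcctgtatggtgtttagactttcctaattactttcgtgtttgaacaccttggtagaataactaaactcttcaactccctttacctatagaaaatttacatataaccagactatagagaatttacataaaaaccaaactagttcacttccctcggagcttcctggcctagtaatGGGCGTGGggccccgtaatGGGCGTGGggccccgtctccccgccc
L1td1: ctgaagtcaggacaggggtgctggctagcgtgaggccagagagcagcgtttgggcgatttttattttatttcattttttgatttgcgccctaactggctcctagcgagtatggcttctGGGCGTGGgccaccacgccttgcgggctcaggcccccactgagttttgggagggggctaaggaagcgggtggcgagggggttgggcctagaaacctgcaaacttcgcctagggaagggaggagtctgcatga
Cldn4: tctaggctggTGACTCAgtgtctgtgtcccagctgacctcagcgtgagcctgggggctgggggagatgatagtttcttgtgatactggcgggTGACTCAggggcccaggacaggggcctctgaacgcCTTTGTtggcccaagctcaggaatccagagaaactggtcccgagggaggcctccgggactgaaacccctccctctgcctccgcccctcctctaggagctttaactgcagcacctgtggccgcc
Col6a1: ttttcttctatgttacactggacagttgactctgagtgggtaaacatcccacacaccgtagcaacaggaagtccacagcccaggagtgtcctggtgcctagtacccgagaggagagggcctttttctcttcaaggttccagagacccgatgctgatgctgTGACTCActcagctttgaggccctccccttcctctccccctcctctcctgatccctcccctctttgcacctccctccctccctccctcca
Col3a1: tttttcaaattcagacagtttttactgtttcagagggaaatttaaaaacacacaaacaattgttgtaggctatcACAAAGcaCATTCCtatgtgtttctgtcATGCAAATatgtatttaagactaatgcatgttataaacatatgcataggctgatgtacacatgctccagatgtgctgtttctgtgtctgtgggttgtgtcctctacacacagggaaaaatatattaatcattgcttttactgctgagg
Runx2: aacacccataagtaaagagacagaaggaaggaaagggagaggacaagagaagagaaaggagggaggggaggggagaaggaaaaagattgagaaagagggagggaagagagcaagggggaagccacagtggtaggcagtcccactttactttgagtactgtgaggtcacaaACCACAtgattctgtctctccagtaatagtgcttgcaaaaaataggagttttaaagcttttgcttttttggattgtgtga

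The labels were checked first. The numbers of peaks were 74444 and 64295 for MEF, 77787 and 78308 for DAY9 and 86585 and 88980 for ESC. Read totals are not given in the sources used here; the commonest background pileup under the peaks, a measure of relative depth, was 3.42 and 8.32 reads in MEF, 7.33 and 7.37 at DAY9 and 3.48 and 5.46 in ESC. Counting noise alone nearly covered the difference between the DAY9 libraries: their variance ratio at recovered pileups was 1.42, where 1 is chance, against 5.52 between the MEF libraries and 15.3 to 19.1 between MEF and DAY9. They were therefore counted as 1 sample for replicate error, so DAY9 has none here, while the rule for regions used both lists. Even 2 libraries against 2 allow no exact two-sided permutation p-value under 0.33, so no p-value is given. The other list of the stage overlapped 84.6% and 84.1% of DAY9 peaks but 63.0% and 73.9% of MEF peaks. The rule asks for both lists of a stage, and the part of this difference in the gained and lost counts was not tested. Of 13 fibroblast markers, 13 and 11 had a peak within 1 kb of an end of the gene in the MEF lists and 9 and 8 in the DAY9 lists. Of 13 pluripotency markers the counts were 4 and 5 in MEF, 10 and 10 at DAY9 and 13 and 12 in ESC, with Esrrb, Prdm14 and Dppa4 lacking such a peak in both DAY9 lists. Of 7 epithelial markers they were 1 and 0 in MEF and 6 and 7 at DAY9. Marker ends of other cell types were also more often open at DAY9 than in MEF: 3 and 3 of 8 for blood against 2 and 1, 4 and 2 of 6 for endothelium against 1 and 1, and 4 and 3 of 6 for neural cells against 1 and 0, while muscle had 1 and 2 of 6 against 2 and 1. In both DAY9 lists an end was open for Cd68, Tal1 and Spi1 (blood), Kdr and Tek (endothelium), Sox1, Neurod1 and Olig2 (neural) and Myod1 (muscle), and in neither for Ptprc and Itgam (blood), Pecam1 and Tie1 (endothelium), Pax6 and Sox10 (neural) and Myog and Myh6 (muscle). In the ESC lists the counts were 3 and 3 for blood, 3 and 2 for endothelium, 5 and 4 for neural cells and 3 and 2 for muscle. Every gene named here as open in both DAY9 lists also had a peak at an end in both ESC lists. The part of cells of these other types in the gained regions was not tested.

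Gained and lost regions differed in how far they resembled the ESC state. Both ESC lists had a peak in 35.7% (12732) of the gained regions, 1 list in 18.6% and neither in 45.8% (16326). Neither ESC list had a peak in 90.7% (20934) of the lost regions, 1 list had one in 6.20% and both in 3.06% (706). Exact binomial 95% intervals, which cover counting error only, run from 35.2% to 36.2% for the gained and from 90.4% to 91.1% for the lost share. The same shares over all merged regions were 28.8% with a peak in both ESC lists and 58.4% with none, and among unchanged regions 84.5% had a peak in both. Counting a peak in at least 1 ESC list raised the gained share to 54.2%.

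**Figure D1:**
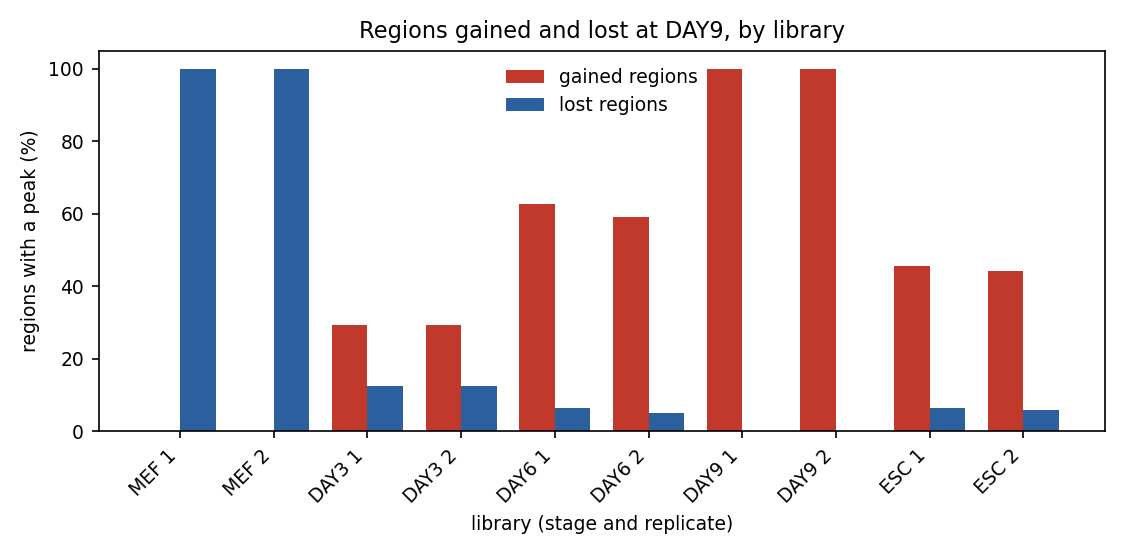
Share of the gained (red) and lost (blue) regions with a peak in each of the 10 libraries, in percent on a linear axis from 0; MEF and DAY9 are 0 or 100 by the rule. Gained regions reached 29.3% and 29.4% at DAY3, 62.7% and 59.1% at DAY6 and 45.7% and 44.2% in ESC, and lost regions were at 5.06% to 6.57% of their number in the DAY6 and ESC libraries.

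The plot of shares by library shows at which stages the regions of both sets had peaks. Of the gained regions, 8392 (23.5%) already had a peak in both DAY3 lists, 10002 (28.0%) had one in both DAY6 but not both DAY3 lists, and 8325 (23.3%) had an earlier peak in single libraries. The other 8963 (25.1%) had no peak in a DAY3 or DAY6 list. The regions first present in both libraries at DAY6 were in both ESC lists at 46.2%, against 33.2% of those in both DAY3 lists and 28.0% of those with no earlier peak. Losses were earlier: 18595 lost regions (80.6%) lacked a peak in every DAY3 or DAY6 list. Another 2362 (10.2%) had a DAY3 but no DAY6 peak, 1440 (6.24%) had peaks at both days, and 673 (2.92%) had none at DAY3 and one at DAY6. ESC had no peak at 93.4% of the regions already absent at DAY3 and DAY6, at 75.3% of those with peaks at both days and at 66.0% of those absent at DAY3 and present at DAY6. DAY3 lists were the shortest of the series, with 45766 and 45497 peaks, and the part of list length in these times was not tested. DAY3 cells were unsorted, whereas DAY6 and DAY9 cells were sorted. Day and sort therefore cannot be told apart between DAY3 and DAY6.

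Strong gained regions matched ESC more often than weak ones, and so did strong unchanged regions. Ranked by the worse of their 2 score ranks and divided into 4 classes of equal size, the gained regions were in both ESC lists at 51.2%, 35.3%, 31.0% and 25.2%, from strongest to weakest, with median DAY9 fold enrichments of 9.45, 5.44, 3.89 and 3.08. The fold enrichment is the authors' linear ratio of a peak to its local background. Unchanged regions, ranked likewise by their DAY9 scores, were in both ESC lists at 99.6%, 96.6%, 84.7% and 56.9%, from strongest to weakest. The lost regions, ranked likewise by their MEF scores, matched ESC at 89.6% to 91.5% with no such order. Near gene ends ESC peaks were more frequent in both sets. Gained regions within 1 kb of an end were in both ESC lists at 46.9%, and those farther away at 33.1% to 36.2%. Lost regions within 1 kb had no peak in either ESC list at 79.6%, and those over 100 kb away at 94.5%. Unchanged regions had the same order, with a peak in both ESC lists at 96.2% within 1 kb and 66.9% over 100 kb away.

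**Figure D2:**
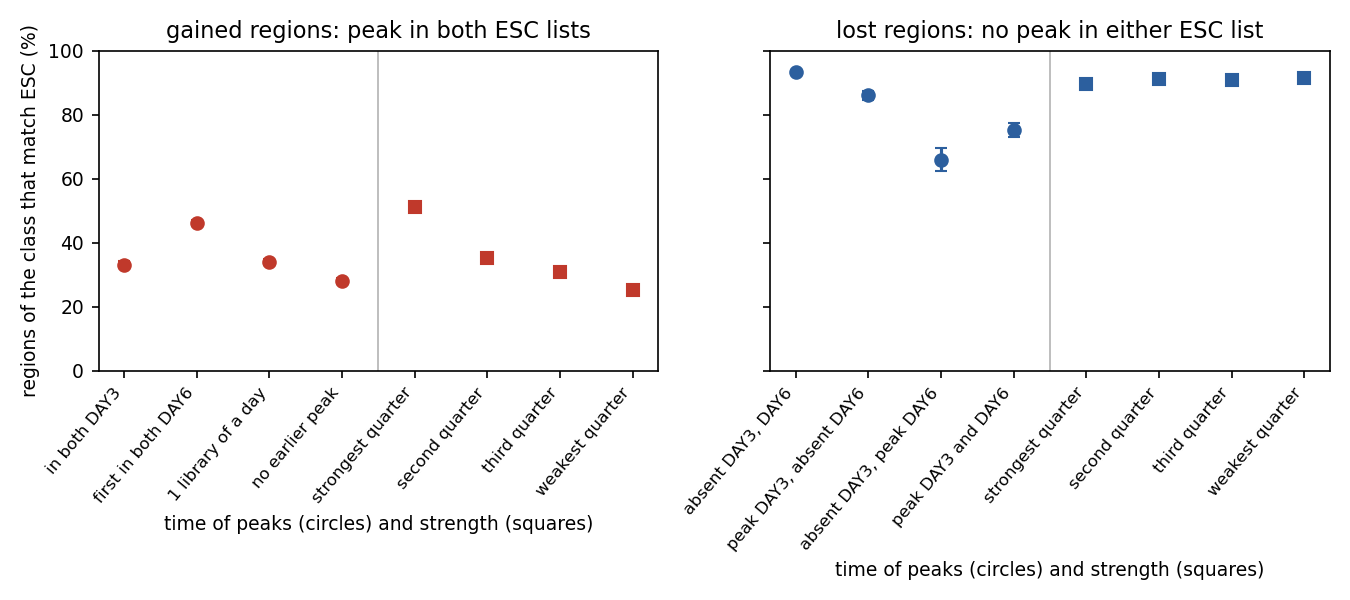
Share of gained regions with a peak in both ESC lists (left) and of lost regions with none in either (right), in percent, by the time of earlier peaks (circles) and by strength from the strongest to the weakest class (squares); bars are exact 95% intervals, often smaller than the point. Gained regions fell from 51.2% to 25.2% with strength, and lost regions were lowest, at 66.0%, where a peak was absent at DAY3 and present at DAY6.

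Both sets lay mostly away from genes' ends, and the lost set farther. Within 1 kb of an end of a protein-coding gene lay 6.57% of gained, 3.62% of lost, 50.7% of unchanged and 12.6% of all merged regions. The median distance to the nearest end was 24.0 kb for gained, 34.8 kb for lost and 0.873 kb for unchanged regions. Over 100 kb away lay 18.9% of the gained and 25.2% of the lost regions, and over 500 kb 792 and 684 regions. Inside a protein-coding gene lay 52.1% of the gained, 50.1% of the lost and 74.9% of the unchanged regions. Median widths were 563, 578 and 956 bp. Measured to start sites in the promoter table, which covers 17492 of 21887 protein-coding genes, the shares within 1 kb were 3.45% and 1.79% and the medians 48.2 and 67.0 kb, again nearer for the gained set.

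**Figure D3:**
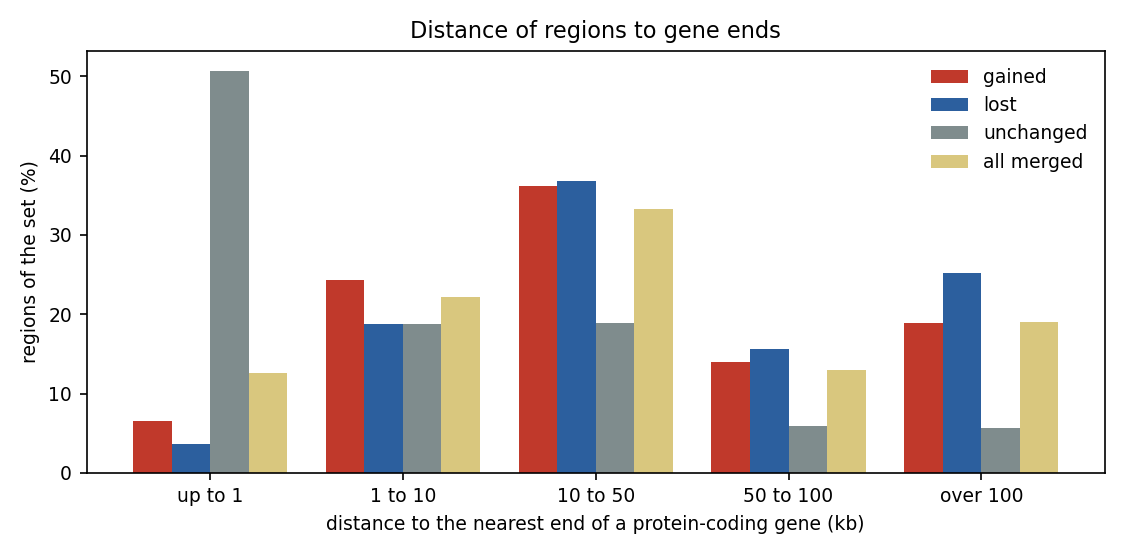
Share of the gained, lost, unchanged and all merged regions in 5 classes of distance to the nearest end of a protein-coding gene (kb), in percent on a linear axis from 0. Gained regions exceed lost ones up to 10 kb and fall below them over 100 kb (18.9% against 25.2%), while 50.7% of the unchanged regions lie within 1 kb.

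A start site in the promoter table lay in a gained region for 755 promoters of 695 genes and in a lost region for 202 promoters of 189 genes. At these promoters the ESC match was 62.1% for the gained (a peak in both lists) and 68.3% for the lost (no peak in either). Base composition differed between the sets: the median GC content over 300 bases was 58.3% in gained and 52.0% in lost promoters, against 62.3% in unchanged and 56.3% in all promoters, and the median number of CpG dinucleotides was 11, 5, 23 and 13. The AP-1 letters, which occur in the Col6a1 promoter printed above and also in that of Cldn4, were in 28.2% of lost, 7.15% of gained and 6.99% of all promoters. The Runx letters were in 22.3% of lost, 13.2% of gained and 15.0% of all promoters, and the Tead letters in 21.3%, 14.3% and 13.6%. Promoters whose start lay in no merged region had AP-1 letters at 10.2%, Runx letters at 20.9% and Tead letters at 16.9%. The Runx share of lost promoters was thus near that of promoters in no region. The Klf letters, seen in the printed Nanog, Tdgf1 and L1td1 promoters, were in 27.3% of gained, 17.3% of lost, 23.6% of unchanged and 19.4% of all promoters. The octamer was in 3.31%, 2.97%, 1.31% and 1.66%. Motif shares were not matched for GC content, and its part in them was not tested.

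The regions of highest rank lay both near and far from genes' ends. The 10 gained regions of highest rank had fold enrichments of 8.88 to 21.8 in the DAY9 lists and a peak in both ESC lists at all 10. Of these, 7 were over 50 kb and 3 within 10 kb of a protein-coding gene end, and 9 already had a peak in both DAY3 lists. The region inside Grik2, a glutamate receptor gene (chr10:49416900-49417861, 323 kb from its nearer end), had folds of 21.5 and 20.6 at DAY9, 16.2 and 13.3 at DAY3, 20.04 and 22.7 at DAY6 and 21.8 and 18.4 in ESC. That inside Nrxn3, a synaptic adhesion gene (chr12:89764656-89765520), instead had 17.8 and 17.3 at DAY9 and 3.79 and 3.56 in ESC. The exception in timing lay 143 kb from Faxc (chr4:22144564-22145468), with no DAY3 peak, 12.2 and 15.6 at DAY6, 18.6 and 19.3 at DAY9 and 20.3 and 18.1 in ESC. The other 7 were nearest to or inside Vmn2r85, Smgc, Tprg, Gm28710, Zmiz1, Sprr2a3 and Armh4.

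The 10 lost regions of highest rank had folds of 11.4 to 22.0 in the MEF lists, 6 were over 50 kb and 2 within 10 kb of an end, and 8 had no ESC peak. The first lay 84.4 kb from Nr2f2, an orphan nuclear receptor of mesenchyme (chr7:70266920-70267550), and its folds stepped down from 22.0 and 17.5 in MEF to 9.36 and 11.8 at DAY3 and 3.37 and 5.71 at DAY6. A region inside Il1rl1, the interleukin-33 receptor (chr1:40444648-40445342), had 18.9 and 14.3 in MEF and no peak in any later list. A region 23.6 kb from Klf6 (chr13:5837180-5837868), a Krüppel-like transcription factor, had 21.3 and 13.2 in MEF and 3.33 in 1 DAY3 list. Regions inside Rbm20 and nearest to Cd93 had a peak in 1 ESC list, with folds of 4.68 and 3.35. The others were inside Trpm6 and Hecw2 and nearest to Gpr65, C1d and Rassf9. So 6 of the 10 still had a peak in both DAY3 lists and 4 in both DAY6 lists.

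Changed regions of the 2 kinds were often near the same genes. Of 21887 protein-coding genes, 11302 held or were nearest to a gained region, which is 51.6%, and 7846 to a lost region, which is 35.8%; 6012 genes had both, 5290 gained alone and 1834 lost alone. Among 1576 genes with 10 or more changed regions, 335 had at least 3 times as many gained as lost and 112 the reverse. Among the 10 genes with the most gained regions were Adgrl2 (56 gained, 9 lost), a latrophilin receptor, Tenm4 (40 and 24), Auts2 (39 and 20), Magi2 (38 and 9), Msi2, an RNA-binding protein of stem cells (34 and 3), Slc39a11 (33 and 15), Nav2 (32 and 14), Arid1b (31 and 12) and Cdh13 (31 and 7). The genes with the most lost regions were Lpp, a focal adhesion protein (30 lost, 14 gained), Flrt2 (25 and 11), Zeb2, a repressor of epithelial genes (25 and 12), Efnb2 (24 and 16), Tenm4, Adgrl3 (22 and 10), Klf6 (22 and 13), Tbl1xr1 (22 and 30), Trib2 (22 and 9) and Adamts16 (21 and 4). The median length was 695 kb for the 10 most gained and 124 kb for the 10 most lost, against 17.2 kb for all genes, and the part of length in the counts was not tested. Of the 34 gained regions of Msi2, 11 had a peak in both ESC lists and 16 in neither, and of the 25 lost regions of Zeb2, 24 had none in ESC.

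Gained regions were more often grouped than lost ones. Runs of at least 3 regions no more than 12500 bp apart held 8125 gained regions (22.8%) in 2235 clusters and 3286 lost regions (14.2%) in 956 clusters, against 15.7% of the unchanged regions. Gained regions were also more numerous, and the part of their density in this was not tested. ESC match was near that of single regions: 35.4% against 36.0% for gained and 91.3% against 90.5% for lost. The largest gained cluster ran over 76.4 kb from Trit1 to Bmp8b, a BMP ligand gene (chr4:123036402-123112761), with 11 regions, of which 3 had a peak in both ESC lists and 5 in neither. A cluster of 10 regions, 4 of them inside Clybl and the others between it and Zic5, a zinc finger factor gene (chr14:122373224-122434413), had 6 in both ESC lists. Its strongest region had folds of 15.2 and 16.4 at DAY9, 4.92 and 3.99 at DAY3, 13.2 and 12.9 at DAY6 and 13.0 and 11.4 in ESC. Clusters of 10 also lay in and near Rbfox2 and Apol6 (7 assigned to Rbfox2, and 2 of the 10 in both ESC lists) and in and near Msi2 (3 in both). Their spans also held 3 lost regions and 1 lost region.

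The remaining gained cluster of 10 differed from these. It lay near Gm40363 (chr6:47738506-47777289), had mean DAY9 folds of 1.80 to 5.44, and none of its regions had an ESC peak. Its regions stood a median 4.34 kb apart and were interspersed with 8 unchanged regions, a median 4.44 kb apart, that had a peak in all 10 lists. The lncRNA genes Gm52861 and Gm52862 lie within it. The largest lost clusters were in Arhgap42, a GTPase regulator (8 regions over 31.6 kb, 7 with no ESC peak), in and near Vmp1 (8 regions, 6 with none), between Pxylp1 and Zbtb38 (7 regions, 4 with none), in Septin9 (7, all with none) and in Col4a2, a basement membrane collagen (7, 6 with none). A region in the Arhgap42 cluster (chr9:9100911-9101483) had folds of 4.97 and 4.72 in MEF and of 16.6 and 7.40 in ESC, with no peak at DAY3, DAY6 or DAY9.

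The gene lists below were chosen with earlier results of these data known, and their counts are descriptions. Per gene, the median over all protein-coding genes was 1 gained and 0 lost regions, and a region within 1 kb of an end of the gene was gained for 10.8% of all genes and lost for 3.94%. Of all these genes, 51.6% held or were nearest to a gained and 35.8% to a lost region. Median gene length was 17.2 kb over all genes and ran from 4.88 kb (cassette genes) to 61.7 kb (TGF-beta pathway) by list. The part of length in the list counts was not tested. Over all these genes there were 1.55 gained regions for each lost one. Folds at ends are those of the named region, and a gene can have other peaks there: of 52 listed genes with a gained end region, 16 had some peak within 1 kb of an end in both MEF lists, and of 21 with a lost one, 12 had some in both DAY9 lists.

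**Figure D4:**
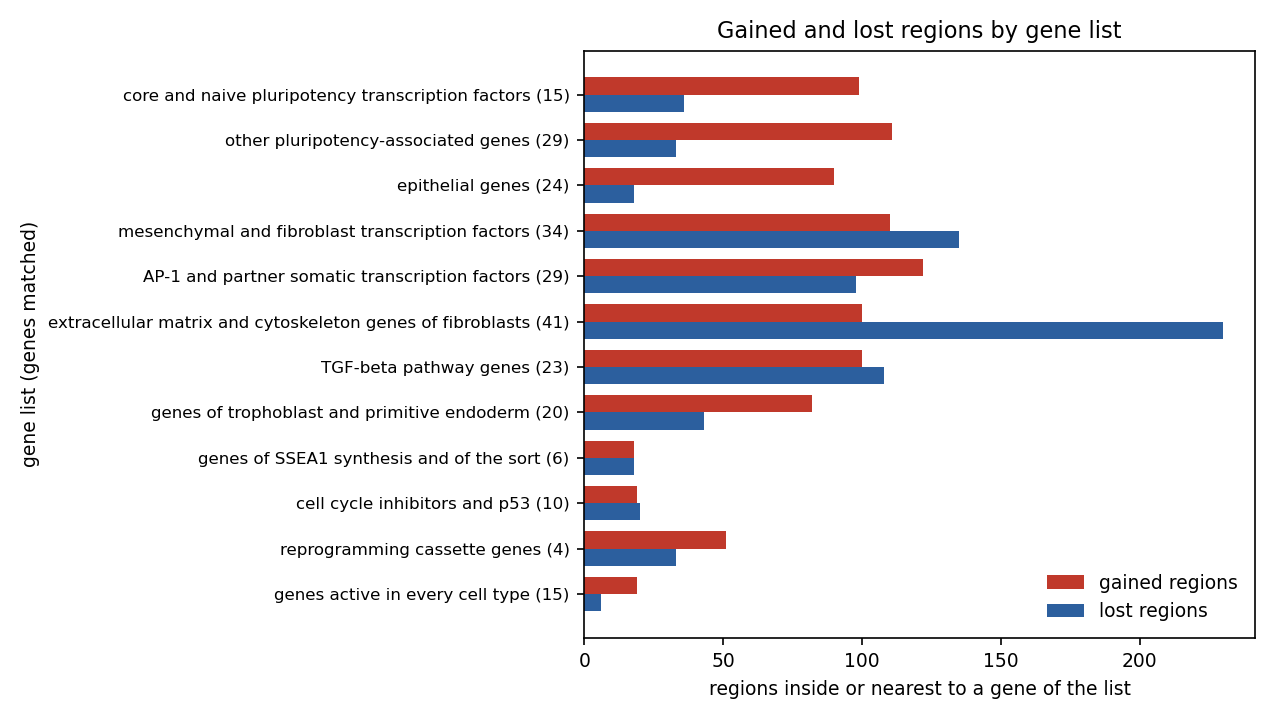
Number of gained (red) and lost (blue) regions inside or nearest to the genes of 12 lists, on a linear axis from 0, with the number of genes matched in brackets. Gained regions exceed lost ones 99 to 36 for core pluripotency factors and 90 to 18 for epithelial genes, but also 19 to 6 for genes active in every cell type. Lost exceed gained 230 to 100 for matrix and cytoskeleton genes.

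All 15 core and naive pluripotency factors held or neighboured a gained region, with 99 gained and 36 lost regions and medians of 4 and 2 per gene. That is 2.75 gained for each lost, against 1.55 over all genes. The ratio was 3.17 for the list of genes active in every cell type, on only 19 and 6 regions. In ESC, 53 of the gained regions (53.5%) had a peak in both lists. Sox2 had 20 gained regions, 7 of them in both ESC lists and 8 in neither, Nr5a2, a nuclear receptor that can replace Oct4 in the cassette, had 18 (7 in both), Klf5 had 10 (5 in both) and Prdm14, a repressor of germ layer genes, had 9 (8 in both). Klf4 had 9 lost and 7 gained regions and Klf2 4 and 2, and they were the 2 members with more lost than gained. A gained region lay at the ends of 4 of the 15 genes (Nanog, Pou5f1, Sall4 and Nr0b1) and a lost one at none. Away from the gene's ends, a start site of Nr5a2 also lay in a gained region (chr1:136953447-136954474). Its folds were 6.49 and 7.34 at DAY9, 6.77 and 8.41 at DAY6 and 3.66 and 2.65 in ESC. At Nanog (chr6:122707274-122707674) the folds were 2.25 and 2.42 at DAY9 and 5.32 and 3.14 in ESC, with no peak in the 6 other lists. Sall4, a zinc finger partner of Oct4 (chr2:168766758-168767510), had 5.46 and 5.59 at DAY9, 5.83 and 6.93 at DAY6 and 5.79 and 3.54 in ESC, and no peak before. Pou5f1, the Oct4 gene (chr17:35509829-35510537), had 3.81 and 3.38 at DAY9, 2.82 in 1 DAY3 list, 3.22 and 3.54 at DAY6 and 3.75 and 3.77 in ESC. This region is near an end of the gene, and some peak lay within 1 kb of an end in all 10 lists, MEF included. The cassette in MEF and DAY9 cells carries an Oct4 copy, whose part was not tested. Nr0b1, an X-linked repressor with Oct4-dependent expression (chrX:86191567-86192031), had 3.11 and 3.53 at DAY9 and 5.56 and 3.63 in ESC. So the Nanog region had a lower fold at DAY9 than in either ESC list, though folds depend on depth, which differed between these libraries. Esrrb and Prdm14 had no peak at an end at DAY9, and Esrrb had one in only 1 ESC list.

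Of 29 other pluripotency-associated genes, 24 had a gained region and 15 a lost one, with 111 gained and 33 lost regions, and 57.7% of the gained ones had a peak in both ESC lists. Tet2, a DNA demethylation enzyme, led with 17 gained and 5 lost regions, ahead of Jarid2 and Mycn with 13 gained each and Lifr, the LIF receptor, with 9. Gained regions lay at the ends of 10 genes: Lin28a, Dppa5a, Fbxo15, Tdgf1, Fgf4, Lefty1, Nodal, Dnmt3l, L1td1 and Otx2. The Dnmt3l region is near 1 end, and a start site inside the gene lies in a lost region (chr10:78054552-78055560; 5.44 and 2.57 in MEF, 3.35 and 4.34 in ESC). Of the 12 gained end regions, 6 were in both DAY3 lists and 11 in both ESC lists. Fbxo15, a target of Oct4 and Sox2, was the strongest, with folds of 9.22 and 9.14 at DAY3, 11.7 and 10.8 at DAY6, 11.2 and 11.8 at DAY9 and 9.29 and 8.12 in ESC. The region over the Tdgf1 start (chr9:110945987-110947909) had 9.46 and 8.53 at DAY9, 6.23 and 4.72 at DAY6 and 4.90 and 5.18 in ESC. At Fgf4, a growth factor of the early embryo, the region at its start (chr7:144860989-144861645) had 6.78 and 6.47 at DAY9 and 5.97 and 4.13 in ESC. The Dppa5a region (chr9:78365757-78366428) was the exception to the ESC match, with 3.00 and 3.34 at DAY9 and no peak in the other 8 lists, although other peaks lay within 1 kb of the gene's ends in 1 MEF, both DAY6 and both ESC lists. An end of Otx2, a factor of the primed state (chr14:48665995-48666815), had 2.80 and 2.68 at DAY9, 4.01 and 2.72 in ESC and no earlier peak.

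Epithelial genes gained regions at their ends. Such regions lay at 16 of 24 genes (66.7%) and lost regions at none; in all, 22 genes had a gained and 11 a lost region, with 90 and 18 regions. Of the 20 regions at ends, 2 were in both DAY3 lists, 11 first in both DAY6 lists and 7 in neither pair, and 14 had a peak in both ESC lists. Cdh1, the epithelial cadherin (chr8:106603046-106604288), had folds of 6.98 and 7.90 at DAY6, 11.6 and 10.6 at DAY9 and 8.09 and 6.53 in ESC. The claudin gene Cldn7 (chr11:69965093-69965724) had 3.82 and 5.56 at DAY6, 12.6 and 13.4 at DAY9 and 7.31 and 3.25 in ESC, so its DAY9 folds were above those of both flanking stages. Cldn3 (chr5:134985478-134986475) was already open at DAY3 with 5.56 and 5.84 and had 12.1 and 13.6 at DAY9. The splicing regulator Esrp1 (chr4:11386402-11387594) had 4.12 and 3.97 at DAY6 and 8.97 and 8.54 at DAY9. Grhl2, a factor of epithelial enhancers (chr15:37232711-37233499), had 5.12 and 5.42 at DAY6 and 7.98 and 9.29 at DAY9, and with 13 it had the most gained regions of the list, ahead of Dsp with 10, while Cdh1 had 6. A few ends lacked ESC peaks. Cldn6 (chr17:23679152-23679805) had 2.97 and 3.34 at DAY9 and no peak elsewhere, and Rab25, a small GTPase of polarity, and 1 of the Krt8 regions likewise had none in ESC. Other genes with a gained end were Esrp2, Krt19, Cldn4, Tjp3, Ovol2, Cdh3 and Marveld2.

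**Figure D5:**
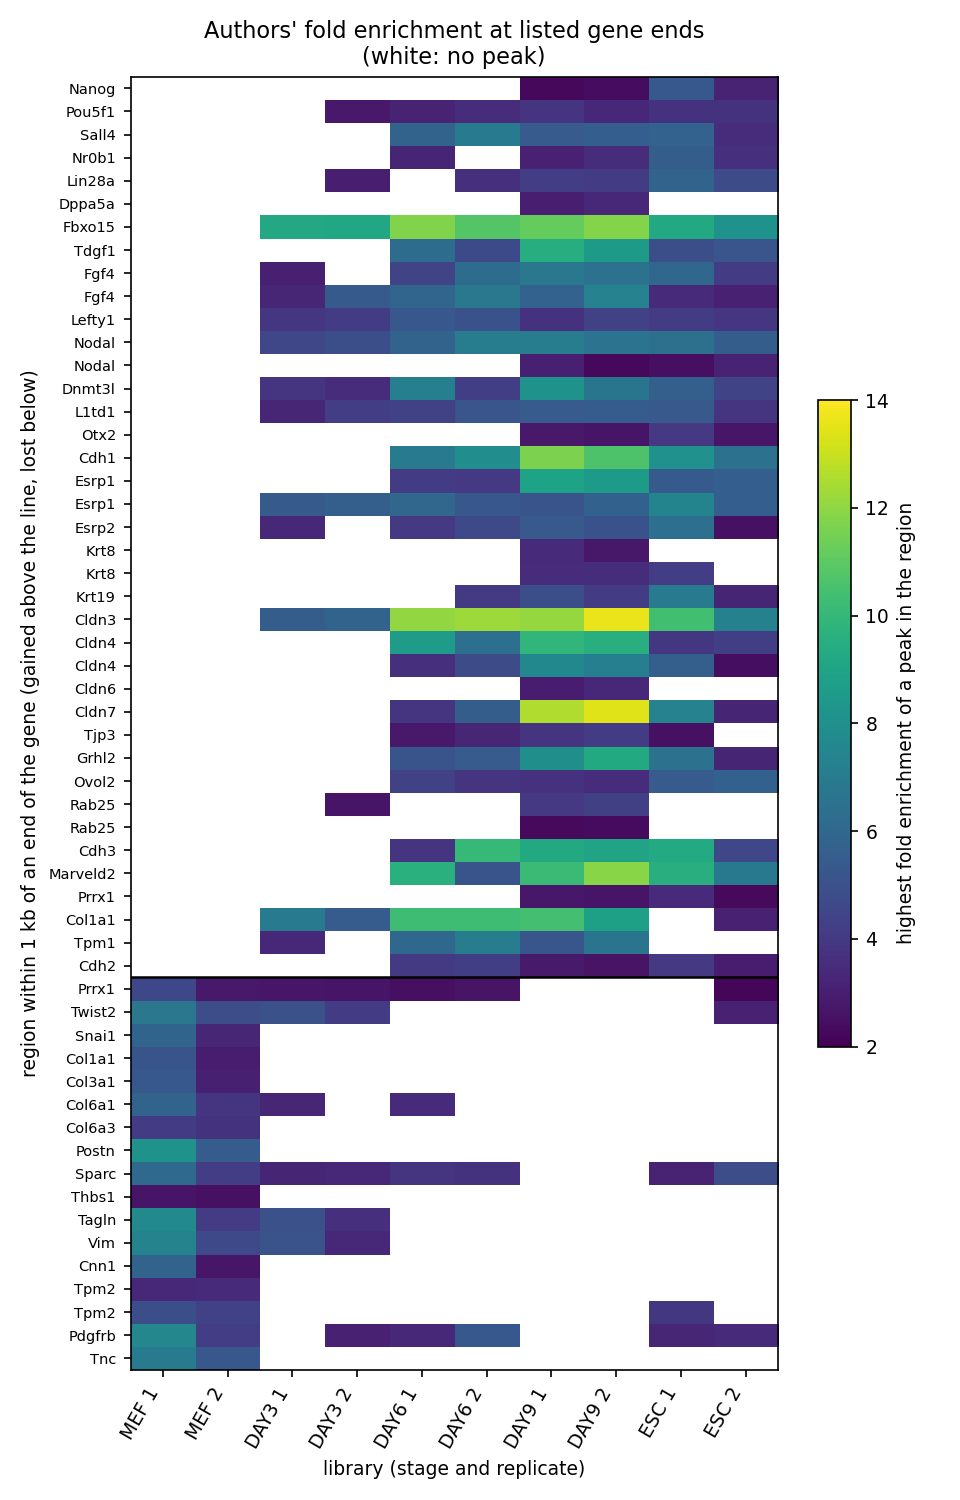
The authors' fold enrichment (colour scale from 2 to 14) at gained regions (above the line) and lost regions (below) within 1 kb of an end of pluripotency, epithelial, mesenchymal factor and matrix genes, by library, without a gene not reported here; white means no peak. The regions at Nanog, Dppa5a and Otx2 first appear at DAY9, Fbxo15 is at 9.22 and 9.14 by DAY3, and most lost rows are white from DAY3 on.

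Genes of the fibroblast matrix and cytoskeleton showed the opposite balance. Of 41 genes, 37 had a lost and 32 a gained region, with 230 lost and 100 gained regions and medians of 4 and 2 per gene. No ESC peak lay in 212 of the lost regions (92.2%), near the 90.7% of all lost regions. Lost regions lay at the ends of 13 genes (31.7%), and 9 of those 14 regions had no peak in a DAY3 or DAY6 list. Postn, the periostin gene (chr3:54358394-54359113), had folds of 8.19 and 5.50 in MEF and no peak in any other list. Tnc, the tenascin C gene (chr4:63958420-63959161), had 6.94 and 5.24 in MEF, and Col3a1 (chr1:45311131-45311816) had 5.29 and 3.07, both with no peak in these regions in any other list. Vim, the vimentin gene (chr2:13583303-13584554), had 7.35 and 4.65 in MEF and 5.06 and 3.32 at DAY3, and Tagln, a smooth muscle actin-binding protein (chr9:45935524-45936358), 7.73 and 4.12 in MEF and 4.96 and 3.68 at DAY3. Those 2 regions kept their peaks at DAY3 and had none from DAY6 on. Of the 13 genes, 6 (Col1a1, Thbs1, Tagln, Vim, Tpm2 and Tnc) had some other peak within 1 kb of an end in both DAY9 lists and 7 had none. Sparc, a matrix glycoprotein (chr11:55419579-55420271), was an exception to the ESC match, with 6.09 and 4.19 in MEF, 3.80 and 3.76 at DAY6, none at DAY9 and 3.15 and 4.84 in ESC; Pdgfrb also had peaks in both ESC libraries. The remaining ends were those of Col1a1, Col6a1, Col6a3, Thbs1, Cnn1 and Tpm2. The most lost regions were near Cdh11 and Cdh2, mesenchymal cadherins (18 each), Thbs1 (17) and Fn1, the fibronectin gene (13).

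Col1a1, the collagen gene that also hosts the cassette, changed at both ends. At its start (chr11:94935994-94936467) a region with MEF folds of 5.13 and 2.97 was lost and had no peak in any other list. At its far end (chr11:94952092-94953054) a region was gained, with 6.94 and 5.51 at DAY3, 10.3 and 10.3 at DAY6, 10.4 and 8.82 at DAY9 and 3.10 in 1 ESC list. The inserted cassette shares this locus in MEF and DAY9 cells and is absent from ESC, and its part in the gained region was not tested. Other gained ends in the list were those of Tpm1 and Cdh2.

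Among mesenchymal and fibroblast transcription factors the sets were closer in number. Of 34 genes, 25 had a lost (73.5%) and 23 a gained region (67.6%), against 35.8% and 51.6% of all genes. They had 135 lost and 110 gained regions. ESC had no peak at 89.6% of the lost regions, near the 90.7% of all lost regions. Zeb2 had 25 lost and 12 gained regions, Tcf4 13 and 21, Nr2f2 12 and 3 and Sox9 12 and 15; Tbx15 had 8 gained and 3 lost. Lost regions lay at 3 ends. At Twist2 (chr1:91800905-91802059) the folds were 6.76 and 4.86 in MEF, 4.99 and 4.10 at DAY3 and 3.10 in 1 ESC list. At Snai1, the Snail repressor of Cdh1 (chr2:167543210-167544231), they were 5.86 and 3.28 in MEF with no later peak in that region, while an unchanged region at its ends left a peak there in all 10 lists. Prrx1, a limb mesenchyme factor, lost the region at its start (chr1:163313196-163314610; 4.62 and 2.84 in MEF) and gained another within 1 kb of the same end (chr1:163315993-163316285; 2.77 and 2.69 at DAY9), so its promoter area was open at both stages.

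AP-1 members and partner factors had 122 gained and 98 lost regions over 29 genes, which is 1.24 gained for each lost against 1.55 over all genes. A gained region was held or neighboured by 19 genes and a lost one also by 19 (65.5% each), against 51.6% and 35.8% of all genes. Runx1, a factor of fibroblast enhancers, had 21 lost and 17 gained regions, Nfia 13 and 14, Nfib 11 and 18 and Tead1 9 and 17. A lost end was found at Runx2 (chr17:44814534-44815328), with folds of 10.6 and 3.43 in MEF, 6.49 and 4.94 at DAY3 and none later. Gained ends were those of Jund, Cebpd, Srf and Nfix, of which Srf (chr17:46546826-46547512) had 5.50 and 4.11 at DAY9 and no peak in this region in another list.

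Genes of the TGF-beta pathway, which maintains the mesenchymal state, were mixed: of 23 matched genes, 22 had a lost and 21 a gained region, with 108 and 100 regions. These genes are 95.7% and 91.3% of the list, against 35.8% and 51.6% of all genes. Their median length was 61.7 kb, against 17.2 kb for all genes. Ltbp1, which stores the ligand in the matrix, had 14 lost and 16 gained regions, Tgfb2 13 and 10, Smad3 10 and 3, Inhba 10 and 4, Smad6 5 and 8 and Smad2 2 and 10. At the receptor gene Tgfbr2, a region at 1 end was lost (chr9:116087238-116087639; 4.79 and 3.22 in MEF) and another at the other end gained (chr9:116175698-116176240; 4.25 and 7.23 at DAY9). The ligand gene Tgfb1 had a gained and a lost region at the same end, and gained ends were also found at Tgfb2, Tgfbr3, Smad7 and Eng.

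Genes of trophoblast and primitive endoderm, lineages outside the embryo proper, had 1.91 gained regions for each lost one, against 1.55 over all genes. Of 20 genes, 17 had a gained and 9 a lost region, with 82 and 43 regions, and 51.2% of the gained ones had a peak in both ESC lists. Tfap2c, an AP-2 factor, had 14 gained and 0 lost regions and Tfap2a 10 and 0, whereas Gata3 had 8 gained and 15 lost, Foxa2 12 and 10, Dab2 7 and 9 and Gata6 3 and 3. Gained ends were those of Tfap2a, Tfap2c, Gata3, Ascl2 and Foxa2. At Gata3 another start site, inside the gene, lay in a lost region (chr2:9878285-9878887), with 3.11 and 2.49 in MEF, peaks in both DAY3 and DAY6 lists, none at DAY9 and 3.72 and 1.89 in ESC. Tfap2a (chr13:40714174-40715124) had folds of 5.10 and 7.76 at DAY6, 8.12 and 8.09 at DAY9 and 8.23 and 4.99 in ESC, and Tfap2c (chr2:172544541-172545045) had 5.27 and 4.59 at DAY9 and 2.69 in 1 ESC list.

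Smaller lists had few changed ends. Among 6 genes of SSEA1 synthesis, the antigen of the sort, Fut9, the fucosyltransferase that makes it in early embryos (chr4:25799127-25800340), gained its end region, with folds of 2.93 in 1 DAY3 list, 5.62 and 5.36 at DAY6, 5.10 and 5.63 at DAY9 and 6.60 and 8.11 in ESC; the list had 18 gained and 18 lost regions. Because the cells were selected by this antigen, the sort and the change of Fut9 cannot be told apart. Of 10 cell cycle inhibitors and p53 genes, Cdkn2a and Cdkn1a gained end regions and Gadd45a lost one. Cdkn1a, the p21 gene (chr17:29090744-29091240), had 3.47 and 4.01 at DAY3, 4.32 and 3.60 at DAY6, 4.43 and 3.85 at DAY9 and no peak in this region in MEF or ESC. Cdkn2b, next to Cdkn2a, had 11 lost regions, all without an ESC peak, and 3 gained ones. Rb1 had 7 gained regions, 4 of them in both ESC lists. Of the 4 cassette genes, Myc had 22 gained and 18 lost regions in its gene-poor surroundings. Among 15 genes active in every cell type, 5 had a gained (33.3%) and 3 a lost region (20%), against 51.6% and 35.8% of all genes, and none at an end. They had 19 gained and 6 lost regions, of which 11 and 4 were near Ywhaz. That is 3.17 gained for each lost, against 1.55 over all genes.

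The sex chromosomes stood outside the range of the autosomes. The gained share of merged regions ran from 21.1% on chromosome 19 to 26.1% on chromosome 17 among autosomes and was 28.7% on X. The lost share ran from 14.1% on chromosome 4 to 17.9% on chromosome 18 and was 9.53% on X. Peaks on X numbered 1697 and 1079 in MEF and 2000 and 2006 at DAY9. Of 145 merged regions on Y, 18.6% were gained and 2.76% (4) lost. Chromosome Y had 52 and 81 peaks in MEF and 81 and 92 at DAY9.

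Regions that just missed the rule were mostly set by 1 MEF library. Both DAY9 lists and 1 MEF list had a peak at 8015 regions, 6499 of them in MEF replicate 1 and 1516 in MEF replicate 2. A peak in 1 MEF list and no DAY9 list was found at 32734 regions, against 19239 with a peak in 1 DAY9 list and none in MEF. Regions of the first kind had no ESC peak at 91.1%, against 90.7% of the lost set. Without MEF replicate 1 there were 42381 gained and 37957 lost regions. Without MEF replicate 2 there were 37257 gained and 41792 lost, so the excess of gained over lost regions turned around. In both cases 1 MEF list sufficed for a lost region, but the order turned only without MEF replicate 2. With the top 50% of each list by score, 18695 regions were gained and 11468 lost, and 10.1% of the gained ones lay within 1 kb of a gene end.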

How the data were processed

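Chromatin accessibility was measured by ATAC-seq in 2 MEF, 2 DAY3, 2 DAY6, 2 DAY9 and 2 ESC libraries. The authors deposited 1 peak list per library, not pooled, with the start and end of each peak, a score (10 times the −log10 p-value, rounded down), a fold enrichment (a linear ratio) and the −log10 of its p-value and q-value, per the file layout, since the deposited lists have no header. Bowtie2 2.3.2, MACS2 2.1.1, deepTools 2.3.6 and mm10 are named, with no role or order, per the submitters' processing notes. Peak threshold, duplicate removal, transposase offset and later peak filters are not given in the sources used here, and each can move a weak peak across the threshold and so change a call.

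Peaks of the MEF and DAY9 lists that shared at least 1 bp were merged, and a library had a region when a peak overlapped it by at least 1 bp (Python 3.11.15, pandas 2.3.3, numpy 2.4.6, scipy 1.17.1). The calling and distance code was tested on simulated lists. Folds between lists are the authors' and depend on depth, so they are set side by side without a test. Relative depth was taken from the pileups that the deposited fold and −log10 p-value of a peak imply. Genes came from RefSeq (GRCm38.p6; 21887 protein-coding). A region was assigned to the gene that holds it or else the nearest, and distance was taken to the nearer end of a gene, since the gene table has no strand. Sequence features were read on promoters, as no genome was used here.

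The rule for named items was the 10 gained and 10 lost regions with the best worse rank by score, the 5 largest clusters of each set, the 10 genes with the most regions of each set, and, for each list, the 4 members with the most gained and the 4 with the most lost regions and those with a region within 1 kb of an end. Of 252 listed symbols, 250 matched, and the other 2 are older names. The regions, lists and rules were chosen with earlier results of these data known. Alternatives were equal list lengths, the top 50% by score, 50% cover, 500 bp windows, each MEF or DAY9 library left out, same-numbered libraries, other ESC rules, a 2.5 kb window and other gene ends. DAY9 replicates 1 and 2 were counted as 1 sample for replicate error, while the rule for regions and the alternatives used their 2 lists. A few genes that the naming rule selected are not reported here.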

Additional observations from a re-analysis of the deposited data

How the results depend on the processing

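Under the alternatives run, the gained set kept the larger share within 1 kb of a gene end and the shorter median distance, and the lost set the higher ESC match. The top 50% of each list by score gave 18695 gained and 11468 lost regions, ESC matches of 31.3% and 92.3%, 10.1% and 4.49% within 1 kb, and medians of 21.3 and 32.7 kb. Lists cut to 64295 peaks gave ESC matches of 31.2% and 92.7% and 3.87% of lost regions within 1 kb. With peaks covering 50% of a region, the ESC matches were 32.4% and 92.7%, the shares within 1 kb 7.47% and 4.12%, and the lost median 33.1 kb, and 500 bp windows gave 3.91% of lost regions within 1 kb. Leaving out each MEF or DAY9 library in turn gave 37257 to 46066 gained and 24103 to 41792 lost regions, ESC matches of 31.8% to 39.6% and 88.7% to 91.5%, 6.45% to 8.19% and 3.90% to 4.07% within 1 kb, and medians of 21.7 to 23.7 and 32.9 to 35.7 kb. Without MEF replicate 2 lost regions outnumbered gained ones (41792 against 37257), the reverse of the reported order, and without MEF replicate 1 there were 37957 lost and 42381 gained. With the replicate block (same-numbered libraries paired, mean of 2 calls), 50835 regions were gained and 41760 lost, since 1 list a stage sufficed, with ESC matches of 33.8% and 89.0%, 7.32% and 4.32% within 1 kb, and medians of 22.5 and 33.2 kb. The numbers mark no shared animal in the labels, and replicate differences in MEF and DAY9 had r = -0.0042 over 21211 unchanged regions, so the paired values are not preferred. A peak in at least 1 ESC list was found at 54.2% of gained regions, and at least 1 ESC list lacked one at 96.9% of lost regions. Within 2.5 kb lay 12.0% and 7.68%. To ends of any annotated gene the medians were 10.1 and 13.6 kb. Alternatives chosen after seeing the data were start sites in the promoter table (3.45% and 1.79% within 1 kb, medians of 48.2 and 67.0 kb), regions outside genes and their ends (ESC matches of 37.6% and 91.7%) and autosomes only (34690 gained, 22745 lost). The causes of these shifts were not tested where the construction does not give them. The lists hold no reads, so absence of a peak is no proof of closed chromatin, and weak regions depend most on depth.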

Other observations

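Genes of other RNA classes also overlapped gained and lost regions, and these counts were not tested. Of 12727 lncRNA genes, 22.7% overlapped a gained, 16.8% a lost and 21.7% an unchanged region. Of 1228 miRNA genes, 18 overlapped a gained region (1.47%), 11 a lost one (0.896%) and 87 an unchanged one (7.08%). Among the gained was Mir302b (chr3:127545228-127545301), of the miR-302 cluster of pluripotent cells, in a region with a peak in both ESC lists, and the neuronal Mir137 was in another. Among the lost were Mir199a-1 (chr9:21496495-21496564), known from mesenchymal cells, and Mir206 (chr1:20679010-20679082), known from muscle, in regions with no ESC peak. These 4 were chosen after their values were seen. Of 408 tRNA genes, 256 (62.7%) overlapped an unchanged region, 5 a gained and 1 a lost one.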
